A study of Mus musculus with 4 samples.

Results

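Cells that carried RNA of Dntt were a small and uneven fraction of the mouse haematopoietic stem and progenitor cells (HSPCs) profiled here. A cell was taken as Dntt-positive when it held at least 1 UMI (unique molecular identifier, 1 tagged RNA molecule) of Dntt. Cells were first kept if the logarithm of their total UMIs lay within 2 SD of the mean of their pool. By this rule 146 of 14915 kept cells were Dntt-positive, or 0.979% (exact Clopper-Pearson 95% interval 0.827 to 1.15%), out of 15566 deposited barcodes. The cells were chosen by their Dntt UMIs, so Dntt itself is described in them and not tested against the other cells. The rule did not use age.

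The study profiled bone marrow HSPCs of C57BL/6-CD45.2 males by 10x Genomics droplet sequencing and asked how they change with age. Cells were sorted as Lin- Sca1+ cKit+ Flt3-, a gate that holds stem cells and multipotent progenitors and leaves out cells with Flt3 protein on their surface. Young mice were 2 to 3 months old and aged mice 17 to 18 months old, and no mouse carried a further allele or treatment according to the labels. There were 2 pools per age, 1 from each of 2 sequencing platforms: young A (2 mice) and aged A (3 mice) from HalioDX, and young B (3 mice) and aged B (2 mice) from TGML. A pool is 1 sample, so mice within it cannot be told apart. Titles and source names were used for the ages, because the free-text descriptions attached to young B and aged A name the other age. Dntt-positive cells numbered 82 of 5189 kept cells in young A, 50 of 2244 in young B, 6 of 3328 in aged A and 8 of 4154 in aged B. The kept cells held 36446168, 16399999, 20788935 and 33286187 UMIs in the same order. Of the distinct barcode sequences, 99 occurred among the kept cells of more than 1 pool, and 2 Dntt-positive cells had a barcode that was also deposited in another pool.

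Dntt encodes terminal deoxynucleotidyl transferase (TdT), a DNA polymerase that adds nucleotides without a template at the joints of immunoglobulin and T cell receptor genes while these are assembled. In bone marrow its RNA is known from the earliest progenitors with lymphoid potential and from developing B cells, and in the thymus from developing T cells. Lymphoid priming is classically described as a passage from stem cells through CD48- and CD34-expressing multipotent progenitors to cells with the cytokine receptors Flt3 and then IL-7 receptor, after which Rag1 and Rag2 cut the receptor genes that TdT modifies.

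Markers of early lymphoid progenitors were spread unevenly over the Dntt-positive cells, so the cells are named here by Dntt. Flt3 RNA was found in 60 of 146 cells (41.1%) although the sort was negative for the protein. Il7r, the IL-7 receptor chain, was found in 12, Ly6d, a surface marker of lymphoid-restricted progenitors, in 14, Rag1 in 3 and Rag2 in 7. Cd3e, part of the T cell receptor complex, and Pax5, the B cell commitment factor, had a UMI in 0 of 146 cells. By counting error alone this allows a share of cells with a UMI of up to 2.05% (3 counts of 146) or 2.49% (exact 95% limit), which limits detection and not the share of cells that express these genes.

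The share of Dntt-positive cells was 1.58% (95% interval 1.26 to 1.96%) in young A, 2.23% (1.66 to 2.93%) in young B, 0.180% (0.0662 to 0.392%) in aged A and 0.193% (0.0832 to 0.379%) in aged B. Both young pools lay above both aged pools, and the intervals of the 2 ages did not overlap. The mean was 1.90% ± 0.458 (SD, n = 2) in young and 0.186% ± 0.00870 (SD, n = 2) in aged pools, a difference of 1.72 percentage points and a ratio of 10.2. On platform A the ratio was 8.77 and on platform B 11.6. A two-sided exact permutation test over the 4 pools gave p = 0.333, the smallest p that 2 pools against 2 allow. Intervals cover counting error only, not the difference between mice.

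**Figure D1:**
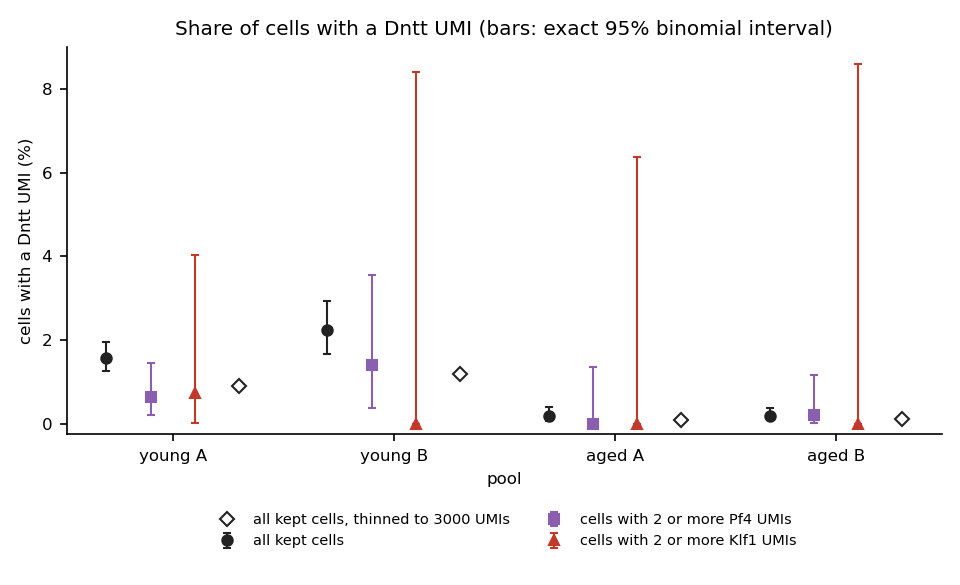
The share of cells with at least 1 Dntt UMI (vertical axis, percent) is plotted for each of the 4 pools: black circles are all kept cells, purple squares cells with 2 or more Pf4 UMIs, red triangles cells with 2 or more Klf1 UMIs, with exact 95% binomial intervals as bars, and open diamonds all kept cells thinned to 3000 UMIs. The 2 young pools stand at 1.58 and 2.23% and the 2 aged pools at 0.180 and 0.193%.

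The share depends on how many UMIs each cell gave, so every cell was also thinned to 3000 UMIs. The thinned share was 0.905% in young A, 1.18% in young B, 0.0930% in aged A and 0.108% in aged B, a ratio of 10.3 between the ages. Thinning left out 0, 50, 176 and 4 cells below 3000 UMIs in the same order. A stricter rule of 2 or more Dntt UMIs kept 26, 19, 1 and 6 cells and gave a ratio of 7.72, which was 16.7 on platform A and 5.86 on platform B.

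Free RNA in droplet data gives UMIs to cells that do not make a transcript, so 2 kinds of cell with RNA of lineages that do not use TdT were read as a rough background. Cells with 2 or more UMIs of Klf1, an erythroid transcription factor, held Dntt in 1 of 178 young cells (0.562%, exact 95% interval 0.0142 to 3.09%) and 0 of 97 aged cells, for which the exact interval reached 3.73% and 3 counts are a share of 3.09%. Cells with 2 or more UMIs of Pf4, a platelet granule chemokine, held Dntt in 9 of 1083 young cells (0.831%, 0.381 to 1.57%) and 1 of 746 aged cells (0.134%, 0.00339 to 0.745%). These Pf4 cells were 1829 of the 14915 kept cells, and the paper's megakaryocyte-primed cluster was in part stem cells. Whether they lacked Dntt RNA of their own was not tested, so their share is not a measure of free RNA alone. In young pools together the 1.78% of all kept cells (1.49 to 2.10%) lay above the upper bound of 1.57% in the Pf4 cells in young animals but inside the wider interval of the Klf1 cells, and in young B alone the Pf4 cells reached 1.40% (0.384 to 3.55%). In aged pools the 0.187% of all kept cells (0.102 to 0.314%) was not above the interval of the Pf4 cells and was not told from this rough background at this depth. Median depth was 7235, 7045, 6931.5 and 10155 UMIs in the Pf4 cells of young A, young B, aged A and aged B, and 10235.5, 11291, 8686.5 and 9775 UMIs in the Klf1 cells.

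Summed over whole pools, Dntt (ENSMUSG00000025014, GRCm38 chromosome 19, 41029275 to 41059525, forward strand) had 270 UMIs in young A, 168 in young B, 7 in aged A and 25 in aged B. These are 7.41 CPM (UMIs as a rate per 1000000 UMIs of the pool; exact Poisson interval 6.55 to 8.35), 10.2 CPM (8.75 to 11.9), 0.337 CPM (0.135 to 0.694) and 0.751 CPM (0.486 to 1.11). Again both young pools exceeded both aged pools, on the same molecules that gave the shares, so the level is no independent evidence of the age difference. In edgeR's quasi-likelihood test with the platform as a block, Dntt was 16.7-fold lower with age, at a log2 fold change of -4.06 (SE 0.32, Benjamini-Hochberg adjusted p = 0.0141), where 2.03% of 13555 genes passed, 1.6% as higher and 0.428% as lower. The call was lost without aged A (log2 fold change -3.45, adjusted p = 0.272), without aged B (-4.92, adjusted p = 0.267) and without the platform block (-3.98, adjusted p = 0.151), the direction staying the same. Single cells weighed heavily on these sums, since the richest cell gave 29, 67, 2 and 9 of the UMIs, without which Dntt stood at 6.61, 6.16, 0.241 and 0.481 CPM. On simulated data a test of the same form, of age in other cells, made a larger share of false calls than its threshold. A whole-pool level does not separate fewer Dntt-positive cells from less Dntt RNA per cell.

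Most Dntt-positive cells rested on a single molecule. Of the 146 cells, 94 held exactly 1 Dntt UMI (56 in young A, 31 in young B, 5 in aged A and 2 in aged B), 29 held 2 or 3, and 23 held 4 or more. The cells with 1 UMI are the ones just inside the rule, and the 14769 kept cells with none are just outside it. Within Dntt-positive cells the median was 1 UMI in young A, young B and aged A and 2.5 UMIs in aged B.

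**Figure D2:**
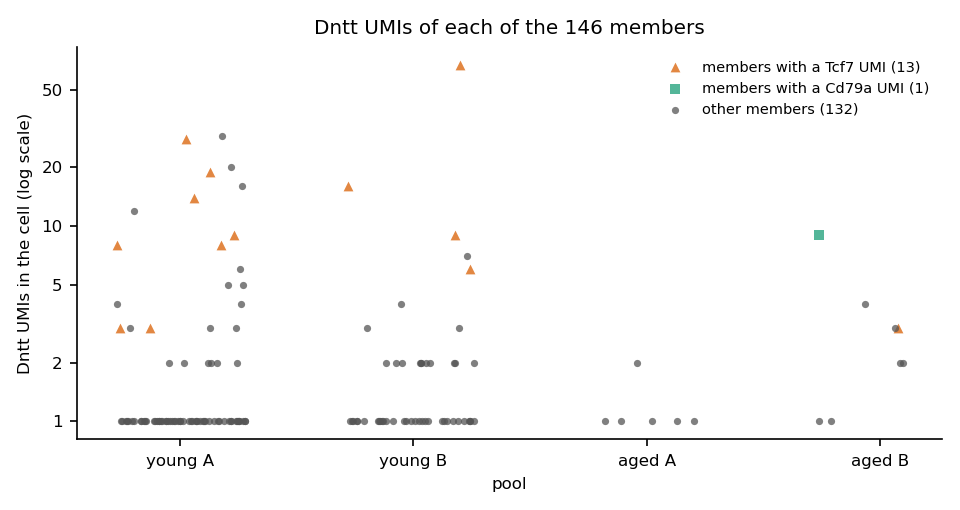
Each point is 1 of the 146 Dntt-positive cells, placed by pool (horizontal axis) and by its number of Dntt UMIs (vertical axis, log scale). Orange triangles are the 13 cells with a Tcf7 UMI, the green square the 1 cell with a Cd79a UMI and grey points the other 132, of which 94 lie at 1 UMI, while the Tcf7 cells range from 3 to 67.

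Several lymphoid genes were found in a larger share of the cells with more Dntt molecules, and others were not. Satb1, a chromatin organiser of lymphoid progenitors, was found in 25.5% of cells with 1 Dntt UMI, 55.2% of those with 2 or 3 and 78.3% of those with 4 or more. Ighm, the immunoglobulin mu chain gene, went from 18.1% through 65.5% to 95.7%, and Arpp21, a phosphoprotein gene of early lymphocytes, from 4.26% through 6.90% to 60.9%. Il7r was at 0, 13.8 and 34.8% and Rag2 at 0, 0 and 30.4%. The stem cell transcription factor Hlf went the other way only in the richest cells, with 47.9, 48.3 and 21.7%, while Flt3 hardly moved, at 42.6, 37.9 and 39.1%. Tespa1, a T cell receptor signalling adaptor gene, peaked in the middle, at 31.9, 51.7 and 34.8%, as did BC035044 at 47.9, 72.4 and 30.4% and Bex6 at 38.3, 65.5 and 39.1%. Of the 23 cells with 4 or more Dntt UMIs, 10 held Tcf7 and 1 held Cd79a. These are descriptions without a test. Median depth moved with them, at 6498, 10099 and 10021 UMIs, and its part in the pattern was not tested.

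The RNA of Dntt-positive cells was described in 3 kinds, chosen after the values were seen and given without a test. The first was 13 cells with a UMI of Tcf7, the transcription factor TCF-1 of T and innate lymphoid development: 8 in young A, 4 in young B, 0 in aged A and 1 in aged B. All 13 carried Trbc1, a T cell receptor beta constant gene, as well as Ighm and Plac8, and also Cpa3, a mast cell protease gene. Bcl11b, which commits progenitors to the T lineage, was in 12 of them, Ly6d in 12, Satb1 in 12, Il7r in 11, Arpp21 in 10, Trdc (the T cell receptor delta constant gene) in 8 and Rag2 in 5. None held Flt3, Hlf, Cebpa or Cd3e, and 4 held Cd34. Their Dntt UMIs ran from 3 to 67 with a median of 9. Trbc1, Trbc2 and the Tcrg-C genes have near-identical copies among which reads can be split, so their single values are uncertain.

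The second kind was 1 cell of aged B with a UMI of Cd79a, a subunit of the B cell receptor. It held 9 Dntt UMIs among 18189 UMIs, with 4837 of Igkc, 1379 of Ighm, 27 of Vpreb1 (the surrogate light chain of pre-B cells), 13 of the B lineage factor Ebf1, 23 of Jchain and 10 of Ly6d, and 0 of Pax5. This cell set the immunoglobulin level of the Dntt-positive cells of its pool: Igkc stood at 63.4, 47.1, 772 and 50599 CPM in young A, young B, aged A and aged B. Igkc RNA was widespread outside them as well, in 47.5% of the other kept cells, at 380, 266, 3148 and 1529 CPM.

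The third kind was the other 132 cells: 74 in young A, 46 in young B, 6 in aged A and 6 in aged B, with a median of 1 Dntt UMI. Of these, 123 held Plac8, a small cysteine-rich protein gene of multipotent progenitors, 114 (86.4%) Cd34, 88 (66.7%) Mpo, the myeloperoxidase of granulocyte precursors, 86 (65.2%) the surface protein gene Cd48 and 60 (45.5%) Flt3. Hlf was in 64, Procr (the endothelial protein C receptor of stem cells) in 47, Satb1 in 46 and Ighm in 44. Il7r and Ly6d were in 1 cell each. RNA of other lineages was also seen, with Pf4 in 28 cells, Elane in 18 and Klf1 in 8.

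**Figure D3:**
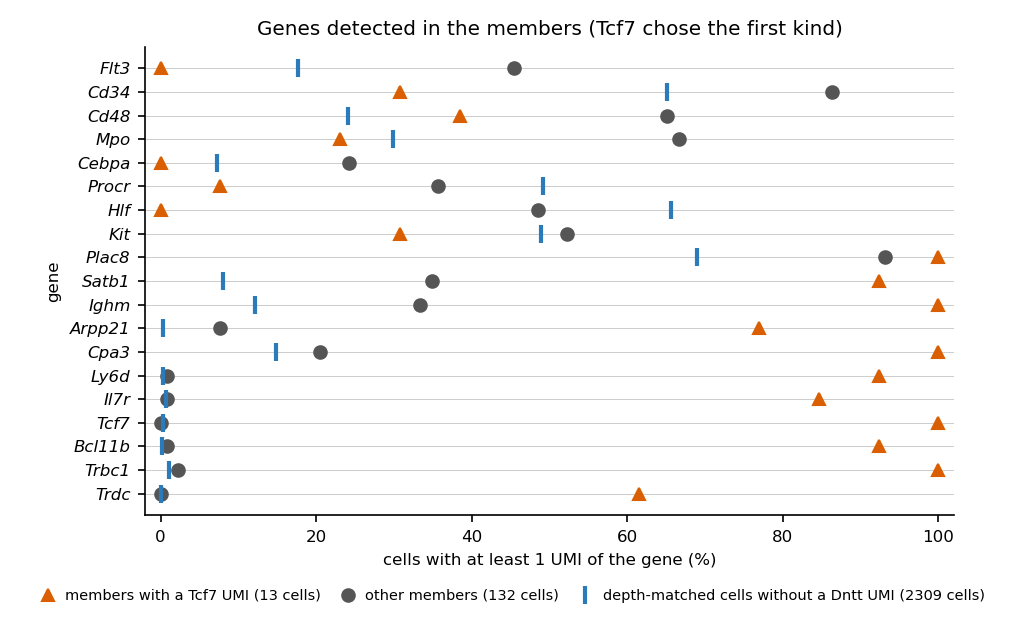
For 19 genes (vertical axis) the percent of cells with at least 1 UMI (horizontal axis) is shown in the 13 Dntt-positive cells with a Tcf7 UMI (orange triangles), the other 132 without Tcf7 or Cd79a (grey circles) and 2309 depth-matched cells without Dntt (blue ticks). Tcf7 chose the first kind; Flt3 and Hlf were seen in none of it, against 45.5% and 48.5% of the 132.

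Flt3 and Il7r were never found in the same Dntt-positive cell: 60 cells held Flt3, 12 held Il7r and 0 held both. Lymphoid and myeloid RNA did occur together. Mpo was in 45 of the 60 Flt3 cells, and 40 of the 58 cells with Satb1 also held Mpo. Of all 1715 kept cells with a Flt3 UMI 60 were Dntt-positive, and of all 149 with an Il7r UMI 12 were.

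Aged Dntt-positive cells were few enough to describe singly. In aged A none of the 6 held Tcf7, Il7r, Ly6d, Rag2 or Cd79a. All 6 held Cd34 and Plac8, 5 held Cd48 and 3 held Flt3. In aged B none of the 8 held Flt3. One had 3 Dntt UMIs with 10 of Tcf7, 24 of Trbc1 and 29 of Ly6d, and another had 4 Dntt UMIs with 10 of Cd34, 4 of Ighm and 1 of Rag2. Yet another had 3 Dntt UMIs beside 36 of Mpo.

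The genes detected most like Dntt, by the ratio of the share of Dntt-positive cells with a UMI to the share of other kept cells, are given as a description. The ratio pools the ages, and 132 of 146 Dntt-positive cells were young against 7301 of 14769 others. Among 8806 genes ranked, Trdc came first with a ratio of 162 (5.48% against 0.0339%), then Arpp21 with 74.9 (13.7% against 0.183%), Slamf6 with 73.6, Tcf7 with 45.3, Bcl11b with 33.7, Tcrg-C1 with 32.6, Cmah with 28.9, Ly6d with 21.8, Clec2i with 15.5 and AA467197 with 15.0. The Tcf7 cells held all 8 of the Dntt-positive cells with Trdc, 12 of 13 with Bcl11b, 12 of 14 with Ly6d, 8 of 10 with Tcrg-C1 and 10 of 20 with Arpp21. Of these 10 genes, Arpp21 was the one seen in a Dntt-positive cell of all 4 pools.

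Dntt-positive cells were then compared with all other kept cells, by summing UMIs per pool in each class and testing over the 4 pools with the pool as a block. Of 12458 genes, 221 were higher and 271 lower in Dntt-positive cells at an adjusted p below 0.05 (edgeR's quasi-likelihood test, Benjamini-Hochberg), which is 1.77% and 2.18%, or 3.95% in all. Most tested surface genes of multipotent progenitors (5 of 6) and of early lymphoid priming (12 of 17) were higher, and most stem cell genes (19 of 24) lower. The filter on low counts read both classes together, so genes rare in other cells could enter the test through the Dntt-positive sums. Counts and medians over gene lists are partly set by this. Without that filter 68 single-gene values kept direction and call, and 1 kept direction only. The median log2 fold change of all genes was -0.11. The calls numbered 209 without young A, 241 without young B, 130 with DESeq2, of which 128 were shared, and 7 without the pool block. Dntt-positive cells were also deeper, with median UMIs of 6585.5 against 6059 in young A, 7596.5 against 6271 in young B, 6406 against 5673.5 in aged A and 11856.5 against 6716.5 in aged B. Against depth-matched cells 250 genes passed, 236 of them shared.

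**Figure D4:**
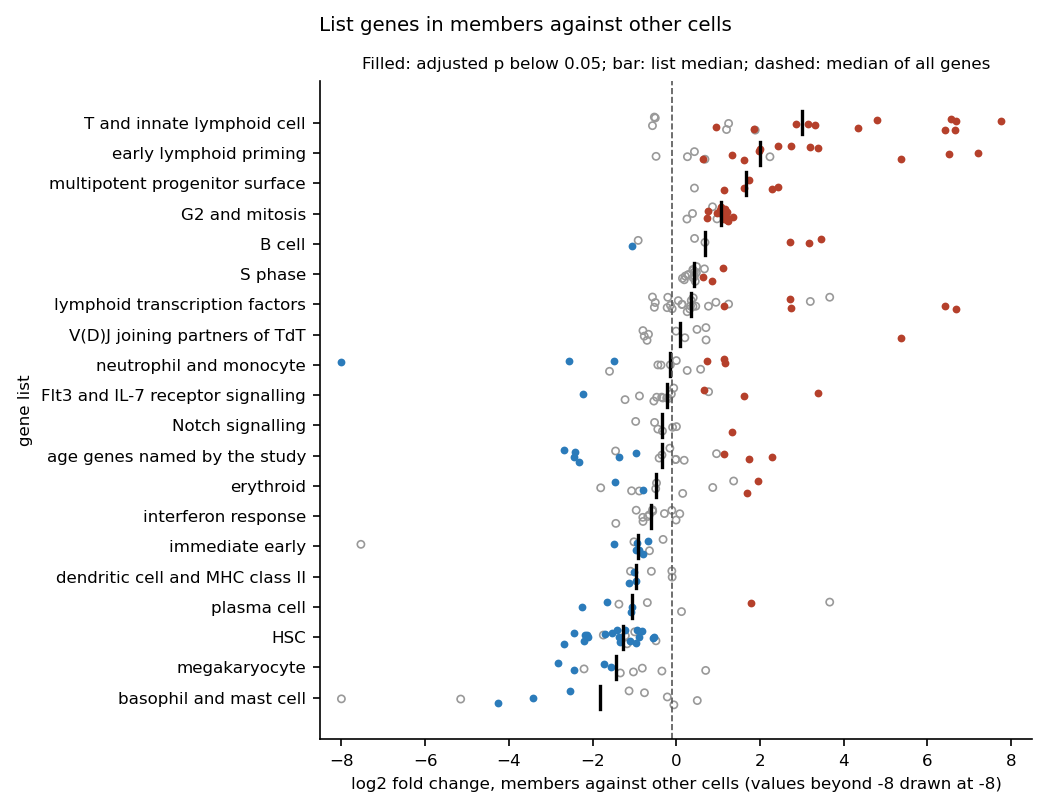
Each point is 1 gene of a list (vertical axis), placed by its log2 fold change in Dntt-positive against other kept cells (horizontal axis, values beyond -8 drawn at -8). Filled points passed the adjusted p of 0.05, red as higher and blue as lower, black bars are list medians and the dashed line is the median of all genes at -0.11. The early lymphoid list lies to the right, with a median of 2.00, and the HSC list to the left, at -1.28.

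Multipotent progenitor surface genes were higher. Flt3 had no UMI in aged B, where 8 cells with 95674 UMIs were too few to show its direction. Of 6 genes tested, 5 were higher and 0 lower, with a median of 1.68. Cd48 (chromosome 1, 171682009 to 171705258), a ligand of the SLAM family that stem cells lack, stood at 239, 199.8, 477 and 219.5 CPM in Dntt-positive cells of young A, young B, aged A and aged B, and at 73.6, 65.8, 30.6 and 11.0 CPM in the other cells. The classes did not overlap. Its log2 fold change was 2.29 (SE 0.19, adjusted p = 4.12e-32 by edgeR's quasi-likelihood test). Plac8 (chromosome 5, 100553725 to 100572245) was at 2429, 1800.2, 1477 and 2069.5 CPM against 924, 907, 341 and 215 CPM, again without overlap, and its log2 fold change was 1.74 (SE 0.13, adjusted p = 9.95e-37).

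Cd34 (chromosome 1, 194938819 to 194961279), a sialomucin that marks multipotent progenitors, was at 477, 399.5, 659 and 240.4 CPM in Dntt-positive cells against 284, 229.7, 116 and 60.5 CPM. It was higher in each pool, though the aged B value lay below the 284 CPM of other cells in young A, with a log2 fold change of 1.14 (SE 0.15, adjusted p = 1.14e-11). Flt3 (chromosome 5, 147330741 to 147400489) was at 135, 49.4, 68.2 and 0 CPM against 46.2, 14.04, 10.4 and 2.41 CPM. It was higher in 3 pools and without a UMI in aged B, with a log2 fold change of 1.62 (SE 0.26, adjusted p = 4.85e-08). Cd48, Plac8, Cd34 and Flt3 passed again without the Tcf7 and Cd79a cells and in cells with exactly 1 Dntt UMI, where the list counted 5 higher of 6 in both. Here and below, cells with a Tcf7 or Cd79a UMI were taken out of the Dntt-positive cells only, while 29 other cells with Tcf7 and 96 with Cd79a stayed, so for genes carried by the removed cells such values describe the cells left and are no test of dependence.

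**Figure D5:**
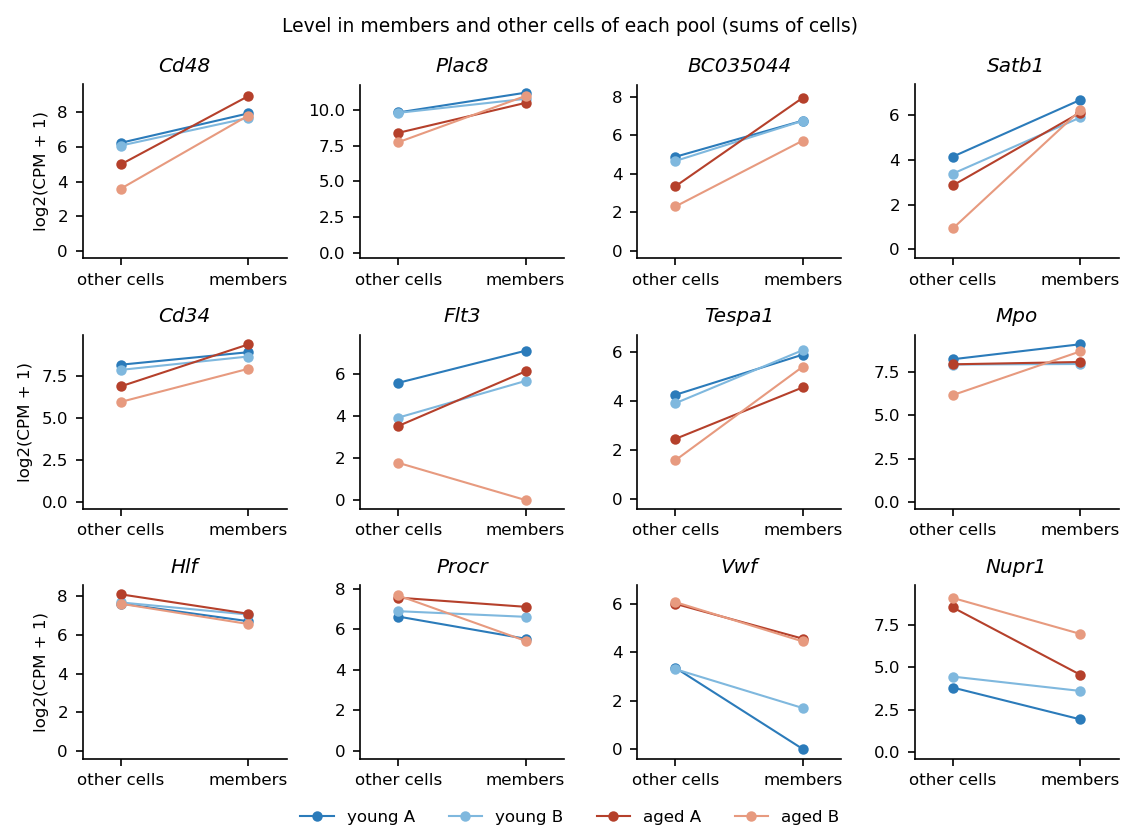
For 12 genes the level in other kept cells and in Dntt-positive cells (horizontal axis) is given as log2(CPM + 1) of the summed cells (vertical axis), with 1 line per pool. Cd48, Plac8, BC035044, Satb1, Cd34 and Tespa1 go up in all 4 pools, Flt3 goes up in 3 and stands at 0 in aged B, and Hlf, Procr, Vwf and Nupr1 go down in all 4.

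Early lymphoid genes were higher as a list, but in different cells. Of 20 genes 17 passed the filter on low counts, and of these 12 were higher and 0 lower, with a median of 2.00. Satb1 (chromosome 17, 51736187 to 51833290) stood at 101, 58.4, 68.2 and 73.2 CPM in Dntt-positive cells against 16.6, 9.40, 6.22 and 0.904 CPM, without overlap, with a log2 fold change of 2.75 (SE 0.22, adjusted p = 4.54e-32). Arpp21 (chromosome 9, 112065091 to 112235938) was at 49.3, 22.4, 22.7 and 10.5 CPM against 0.252, 0.564, 0.241 and 0.121 CPM. It was higher in each pool without overlap, though the aged values rested on 1 UMI each. Arpp21 was held by 20 Dntt-positive and 27 other cells, with a log2 fold change of 6.52 (SE 0.45, adjusted p = 8.15e-44 by edgeR's test). Arpp21 passed the filter on low counts through the Dntt-positive sums, so the test adds no evidence to these levels. Tespa1 was at 59.1, 67.3, 22.7 and 41.8 CPM against 18.2, 14.1, 4.48 and 1.99 CPM, and passed with a log2 fold change of 1.97. Satb1 and Arpp21 also passed without the Tcf7 and Cd79a cells, at 2.13 and 5.16.

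Il7r and Ly6d, by contrast, came mostly from the Tcf7 cells, which held 11 of the 12 cells with Il7r and 12 of the 14 with Ly6d. Il7r (chromosome 15, 9505788 to 9530176) was at 23.9, 31.4, 0 and 41.8 CPM against 2.71, 2.88, 3.62 and 0.331 CPM in other cells, with a log2 fold change of 3.39 (SE 0.42). Ly6d (chromosome 15, 74762056 to 74763620) was at 279, 168, 0 and 408 CPM against 1.71, 0.815, 2.99 and 1.14 CPM, with a log2 fold change of 7.20 (SE 0.22). Both were absent from the 6 cells of aged A, and in the Dntt-positive cells left after removing the Tcf7 and Cd79a cells their values were -0.69 and -0.78. The chemokine receptor gene Ccr9 (3.20) stood at -1.02 there. Without these 14 cells the early lymphoid list counted 6 higher and 1 lower of 15, with a median of 0.997 beside -0.15 for all genes, and in cells with exactly 1 Dntt UMI 6 higher and 1 lower of 14.

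Of 20 T and innate lymphoid genes 18 passed the filter on low counts, and of these 12 were higher and 0 lower, with a median of 3.00. Tcf7 and Bcl11b among them are so rare in other cells that they passed through the Dntt-positive sums. The count and median are thus partly set by the filter and are given as a description. Tcf7 (chromosome 11, 52252371 to 52283014) stood at 40.8, 33.7, 0 and 105 CPM against 0.700, 0.376, 0.289 and 0.0603 CPM, with a log2 fold change of 6.69 (SE 0.42). Bcl11b (6.43), Trbc1 (6.56), Tcrg-C2 (7.76) and the granzyme gene Gzma (6.67, from 10 UMIs) were also higher. Without the Tcf7 and Cd79a cells 2 of 12 genes were higher, with a median of 0.04, a removal made on a gene of this list. Among cells with 1 Dntt UMI 0 of 11 passed in either direction by edgeR's quasi-likelihood test, 6 having an unadjusted p below 0.05. The summed list stood at 986, 1051, 341 and 1014 CPM in Dntt-positive cells, and at 306, 355, 271 and 191 CPM in other cells. Its most abundant gene in Dntt-positive cells was Nkg7, a cytotoxic granule gene, and its defining marker Cd3e was at 0.

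B cell genes were higher in 3 and lower in 1 of 7 tested, with a median of 0.69. The 3 were Cd79a (3.47), Vpreb1 (3.18) and Ebf1 (2.71), and all rested on the single Cd79a cell of aged B. DESeq2 called none of these 3 (0.89 to 1.15). Without aged B the log2 fold changes of Vpreb1 and Ebf1 were 0.03 and 0.05, neither called. Of 9 plasma cell genes 1 was higher and 4 lower, with a median of -1.07. Among the enzymes that join receptor gene segments with TdT, 1 of 10 was higher, with a median of 0.10. It was Rag2, the partner of the Rag1 recombinase, at a log2 fold change of 5.38 (SE 0.65) from 8 UMIs. Rag2 passed the filter on low counts through the Dntt-positive sums, so this value is given as a description. Of 27 lymphoid transcription factors 5 were higher and 0 lower, with a median of 0.36: Tcf7, Bcl11b, Satb1, Ebf1 and Irf8, the interferon regulatory factor of monocyte, dendritic and B cells. Tcf7 and Bcl11b passed the filter on low counts through the Dntt-positive sums, so this count and median are partly set by the filter. Irf8 stood at 46.5, 15.7, 22.7 and 10.5 CPM against 17.1, 11.3, 10.3 and 6.57 CPM. It was higher in each pool, but the aged values rested on 1 UMI each and cannot show a direction. Its log2 fold change was 1.13 (SE 0.29, adjusted p = 0.00544 by edgeR's test). Irf8 lost its call without young A (0.46), in cells with exactly 1 Dntt UMI (0.78) and in DESeq2 (0.98). Notch1, the receptor for T lineage signals, passed at 1.34 (SE 0.32) but not without the Tcf7 and Cd79a cells (0.997), without young B (0.93), in cells with exactly 1 Dntt UMI (0.87) or in DESeq2 (1.43), as 1 of 7 Notch signalling genes.

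Stem cell genes were lower. Of 24 tested, 0 were higher and 19 lower, with a median of -1.28, and 17 of 24 were lower without the Tcf7 and Cd79a cells. DESeq2 called 8 of them lower, and 12 were lower without young A. Hlf (chromosome 11, 90336536 to 90390895) was at 104, 132, 136 and 94.1 CPM in Dntt-positive cells against 197, 205, 275 and 196 CPM, without overlap, with a log2 fold change of -0.95 (SE 0.17, adjusted p = 4.54e-06). In cells with exactly 1 Dntt UMI, 11 of 24 stem cell genes passed as lower, and Hlf (-0.82) and Procr (-0.80) did not. Mecom, a transcription factor needed by stem cells, was at 19.7, 20.2, 0 and 0 CPM against 49.2, 53.3, 104 and 51.9 CPM, with a log2 fold change of -1.70 (SE 0.29). Procr (chromosome 2, 155751117 to 155755471) was at 45.1, 96.5, 136 and 41.8 CPM against 97.5, 117, 187 and 201 CPM. It was lower in each pool although the classes overlapped across pools, with a log2 fold change of -0.96 (SE 0.20, adjusted p = 9.83e-05), but it did not pass in DESeq2 (adjusted p = 0.147).

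Several other stem cell genes were lower by more. Sult1a1, a sulphotransferase gene, was at 9.85, 0, 22.7 and 136 CPM against 27.5, 38.3, 249 and 319.9 CPM, with a log2 fold change of -2.11 (SE 0.28), not called in DESeq2 (-2.63). Cdkn1c, a brake on the cell cycle of stem cells, was at -2.21 and the transcription factor gene Tcf15 at -2.19, both losing their calls without young A (-1.58 and -2.33) and in DESeq2 (-2.001 and -1.99), and Tcf15 also in cells with exactly 1 Dntt UMI (-1.76). Slamf1, the stem cell marker CD150, had 3 UMIs in all Dntt-positive cells, at 1.41, 4.49, 0 and 0 CPM against 10.5, 9.15, 42.6 and 45.6 CPM. Its log2 fold change was -2.68, and it was not called without young A (-2.56), with at least 2 Dntt UMIs (-3.27), with exactly 1 (-2.44) or in DESeq2 (-2.64). Vwf (chromosome 6, 125546774 to 125686679), the von Willebrand factor gene, was at 0, 2.24, 22.7 and 20.9 CPM against 9.29, 8.90, 63.5 and 66.7 CPM. Its log2 fold change was -2.44 (SE 0.56, adjusted p = 0.000835), and it was not called without young A (-1.92), with at least 2 Dntt UMIs (-1.55) or in DESeq2 (-2.36).

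Genes of the other lineages that this gate can hold were mostly lower or did not pass. Of 10 megakaryocyte genes 4 were lower and 0 higher, with a median of -1.44, and 2 of 9 were lower without young A. Among them Pf4 was at 71.8, 58.4, 45.4 and 20.9 CPM against 170.3, 176, 174 and 271 CPM, without overlap, with a log2 fold change of -1.73 (SE 0.20, adjusted p = 7.89e-16). Of 10 basophil and mast cell genes 3 were lower, with a median of -1.83, and 5 of 9 without young A. Prss34, a basophil protease gene, was at 249, 20.2, 68.2 and 10.5 CPM against 1100.1, 1160.1, 457 and 331 CPM, with a log2 fold change of -3.41 (SE 0.19). Of 7 genes of dendritic cells and MHC class II 3 were lower, with a median of -0.95. Cd74, the class II invariant chain, stood at 53.5, 58.4, 90.9 and 689.8 CPM against 110.0, 198, 411 and 570.4 CPM, with a log2 fold change of -1.02. It was lower in 3 pools and higher in aged B, where the level without the Tcf7 and Cd79a cells was 95.6 CPM, below that of the other cells. Without those cells its log2 fold change was -1.77, and DESeq2 did not call Cd74 (-1.09). Of 12 erythroid genes 2 were higher and 2 lower, with a median of -0.48. Rhd, a blood group antigen gene and 1 of the higher pair, stood at 22.5 CPM in young A and 0 in the other pools, and DESeq2 did not call it (1.16). Its direction turned without young A (-7.585), with at least 2 Dntt UMIs (-8.17) and over every barcode (-0.00143). Car2, the most abundant gene of the list, stood at 1049, 1347, 863 and 606 CPM against 1405, 1519, 1494 and 1717 CPM. Car2 was lower in each pool, but not called in DESeq2 (-0.76) or with exactly 1 Dntt UMI (-0.72).

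Neutrophil and monocyte genes were split, 3 higher and 3 lower of 13, with a median of -0.14. Mpo (chromosome 11, 87793581 to 87804413) was at 558, 251, 273 and 418 CPM against 305, 246, 248 and 71.3 CPM. It was higher in each pool, most in aged B, where 1 cell held 36 Mpo UMIs and no other Dntt-positive cell more than 3. The aged B value thus rested mostly on that cell. The log2 fold change of Mpo was 0.73 (SE 0.15, adjusted p = 9.53e-05 by edgeR's test), but it was 0.35 against depth-matched cells and 0.32 without aged B, neither called. Nor was it called with at least 2 Dntt UMIs (0.61), with exactly 1 (0.32) or in DESeq2 (0.80). Elane, the neutrophil elastase gene, was at 23.9, 6.73, 68.2 and 73.2 CPM against 122, 204, 174 and 49.7 CPM, a log2 fold change of -2.57 (SE 0.26). Over every deposited barcode its direction turned, to 0.15, and DESeq2 did not call Elane (-2.05). Cebpa, a myeloid transcription factor, passed at 1.17 (SE 0.30) and lost its call without young A (1.99), without aged A (0.98), with at least 2 Dntt UMIs (0.89), against depth-matched cells (1.09) and in DESeq2 (1.61).

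Genes of G2 and mitosis were higher as a list, with calls that depended on young B. Of 18 genes of G2 and mitosis 14 were higher and 0 lower, with a median of 1.07, and of 17 S phase genes 3 were higher, with a median of 0.43, of which 0 passed without young A (5 at an unadjusted p below 0.05) and 1 without young B. Summed over the S phase list, Dntt-positive cells stood at 2370.3, 1574, 1249.7 and 2227 CPM against 1603, 1413, 1117 and 882 CPM, the largest excess being in aged B. Tpx2, a spindle assembly factor, stood at 81.7, 94.3, 22.7 and 41.8 CPM against 34.2, 27.2, 16.2 and 20.7 CPM. It was higher in each pool, though in aged A by 1 UMI only. The log2 fold change of Tpx2 was 1.35 (SE 0.23, adjusted p = 4.80e-07 by edgeR's test), and 1.05 without young B, not called. Ccnb2, a mitotic cyclin, was at 169, 231, 22.7 and 20.9 CPM against 75.5, 55.8, 33.2 and 49.3 CPM. It was higher in young pools and lower in aged pools, with a log2 fold change of 1.20 (SE 0.19) that was 0.52 without young B and 0.57 in DESeq2, neither called. Summed over the G2 and mitosis list, Dntt-positive cells stood at 1765, 2221, 136 and 795 CPM, against 956, 760.5, 453 and 607 CPM in other cells, so that aged A was lower. Of this list 0 genes passed edgeR's test without young B, where the median was 0.57 and 6 had an unadjusted p below 0.05, and 8 passed without young A. DESeq2 called 1 of them, and against depth-matched cells 9 passed.

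Of 10 immediate early genes 6 were lower and 0 higher, with a median of -0.91, and 3 were lower without young A. Ier2 stood at 134, 92.0, 386 and 105 CPM against 286, 121, 624 and 230.0 CPM, lower in each pool, with a log2 fold change of -0.95 (SE 0.16). Of 12 interferon response genes 0 passed in either direction by edgeR's quasi-likelihood test, with a median of -0.60, where 3 had an unadjusted p below 0.05, and 0 by DESeq2. In Flt3 and IL-7 receptor signalling 3 of 15 were higher (Flt3, Il7r and the survival factor Bcl2) and 1 lower (Socs2, a cytokine signalling inhibitor, -2.23), with a median of -0.23. Bcl2 was at 0.66 and lost its call without young A (0.40), without young B (0.53), without a filter on low counts (0.61), with exactly 1 Dntt UMI (0.15), without the Tcf7 and Cd79a cells (0.19) and in DESeq2 (0.68). DESeq2 did not call Socs2 either (-2.06).

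Genes known from the same samples to be linked with age made up a further list, which is therefore no independent evidence. Of 17 tested, 3 were higher and 6 lower, with a median of -0.34. Nupr1 (chromosome 7, 126623249 to 126630861), a stress-induced nuclear protein gene, was at 2.82, 11.2, 22.7 and 125 CPM against 13.0, 21.0, 372 and 551 CPM. It was lower in each pool, with a log2 fold change of -2.33 (SE 0.28, adjusted p = 1.54e-14).

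Beyond the lists, the genes with the largest differences in the same direction in all 4 pools included BC035044, at 108, 108, 249.9 and 52.3 CPM against 28.6, 24.4, 9.21 and 3.92 CPM, with a log2 fold change of 2.34 (SE 0.23). Bex6 was at 81.7, 71.8, 45.4 and 105 CPM against 19.0, 20.9, 6.03 and 5.91 CPM, with a log2 fold change of 2.19 (SE 0.26). Neither overlapped between the classes, and BC035044 was detected in 69 and Bex6 in 60 of the 132 cells without Tcf7 or Cd79a. Matn4, a matrilin gene of stem cells, had 0 UMIs in Dntt-positive cells against 0.895, 0.877, 58.1 and 85.4 CPM in the others. Nearly all of its RNA lay in aged cells, of which few held Dntt, so no fold is given, and it was not called in DESeq2 (adjusted p = 0.923) or in cells with exactly 1 Dntt UMI (adjusted p = 0.108 by edgeR's test).

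Dntt-positive cells were also set against kept cells with a Flt3 UMI and no Dntt UMI: 1190 in young A, 202 in young B, 185 in aged A and 78 in aged B. Dntt-positive cells still carried more Satb1 and Cd48 than these, and 13 of 20 stem cell genes tested were lower. Of 7852 genes, 115 were higher (1.46%) and 99 lower (1.26%), 2.73% in all, with a median of -0.02 over all genes. Satb1 was at 25.8, 19.3, 21.8 and 0 CPM in Flt3 cells, below each Dntt-positive pool, with a log2 fold change of 2.00 (SE 0.25). Cd48 was at 105, 71.6, 70.7 and 20.4 CPM (1.61, SE 0.15), also without overlap with the Dntt-positive cells. Arpp21 was at 0.323, 1.20, 0.777 and 0 CPM in Flt3 cells, from 3, 2, 1 and 0 UMIs. It passed the filter on low counts through the Dntt-positive sums, so its log2 fold change of 6.15 (SE 0.67) is given as a description.

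Of 20 early lymphoid genes 12 passed the filter on low counts against Flt3 cells, Arpp21 among them through the Dntt-positive sums. Of these 12, 9 were higher than in Flt3 cells, with a median of 1.34, so this count and median are partly set by the filter. Of 5 multipotent progenitor surface genes tested 4 were higher, with a median of 1.31. Cd34, at 417, 315, 289 and 119 CPM in Flt3 cells, differed by a log2 fold change of 0.43 (SE 0.12, adjusted p = 0.0257), which lost its call whichever pool was left out (0.33 to 0.62). Of 20 stem cell genes 13 were lower, with a median of -0.98, and 6 without young A. Hlf was at 212, 241, 295 and 185 CPM in Flt3 cells, above each Dntt-positive pool, with a log2 fold change of -0.98 (SE 0.15, adjusted p = 6.06e-08). Of 17 G2 and mitosis genes 11 were higher, with a median of 0.92, of which 0 passed without young B (9 at an unadjusted p below 0.05) and 1 without young A. The calls numbered 51 without young A, 126 without young B, 42 with DESeq2 and 0 without the pool block, where 260 genes had an unadjusted p below 0.05.

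Whether the age difference itself was the same in Dntt-positive cells and in other kept cells was tested as an interaction of class and age. With 6 and 8 aged Dntt-positive cells this comparison has little depth: 18 genes were higher and 18 lower of 12458 (0.289% in all, 0.144% in each direction). The median over all genes was -0.43 with TMM scaling and -0.33 with DESeq2's size factors, under which 22 were higher and 14 lower, and DESeq2 called 1 gene. The calls numbered 17 without young A, 15 without young B, 101 without aged A and 12 without aged B. In other kept cells Cd48 was at 73.6 and 65.8 CPM in young and 30.6 and 11.0 CPM in aged pools. In Dntt-positive cells the young values of 239 and 199.8 CPM overlapped the aged values of 477 and 219.5 CPM. The difference between the 2 age effects was 2.23 on the log2 scale (SE 0.34, adjusted p = 1.05e-07 by edgeR's quasi-likelihood test), and Cd48 was the gene that DESeq2 also called. With at least 2 Dntt UMIs the difference was 1.56 and not called.

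Plac8 and Cd34 followed the same pattern, with differences of 1.32 (SE 0.18) and 1.24 (SE 0.26). In other kept cells each young pool exceeded each aged pool for both genes. In Dntt-positive cells the aged levels overlapped the young ones for Cd34, and for Plac8, where aged A was lowest and aged B stood between the young pools. Neither passed in DESeq2. The difference for Plac8 was not called without young B (1.01) or without aged B (0.63), and that for Cd34 lost its call without young A (1.26), without young B (1.18) and without aged A (1.04). With at least 2 Dntt UMIs neither was called, at 0.66 for Plac8 and 0.80 for Cd34.

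Fli1, a transcription factor of megakaryocytes and stem cells, went the other way, with 92.9, 94.3, 22.7 and 20.9 CPM in Dntt-positive cells of young A, young B, aged A and aged B against 90.5, 76.7, 167 and 108 CPM in other cells. It was lower in aged than in young Dntt-positive cells and higher in aged than in young other cells, a difference of -2.95 (SE 0.61, adjusted p = 0.00103). The aged values rested on 1 and 2 UMIs, and leaving out aged B gave -3.33, not called. Age within Dntt-positive cells alone was not tested, because both aged pools held fewer than 10 of them.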

How the data were processed

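Each pool's matrix, as deposited by the authors, gives raw counts of UMIs for every gene and barcode, from Cell Ranger 2.2.0 on mm10 (GRCm38.p4) according to the submitters' processing notes; which gene annotation they used is not stated there. Coordinates come from GENCODE vM21 on GRCm38, matched by gene identifier for 28339 of 28692 genes. Doublets were not called, so a cell with RNA of 2 lineages may be 2 cells.

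UMIs were summed per pool and class and tested with edgeR 4.0.16 (quasi-likelihood, TMM, filterByExpr) in R 4.3.3, Benjamini-Hochberg adjusted at 0.05 over all genes tested, with DESeq2 1.42.0 as an alternative. Pool was the block between classes and platform letter the block between ages. Same-letter pools came from the same facility, and their deviations from the age means had a correlation of 0.488 over 13555 genes. By the paper, young A and aged B were sequenced to fewer reads per cell than young B and aged A. Read depth thus differed between the ages within each letter, in opposite directions, which the block does not take up. Dntt was left out of tests between classes, and Flt3 also out of the test against Flt3 cells. CPM are UMIs per 1000000 UMIs of the summed class. Intervals are Clopper-Pearson or exact Poisson at 95%. Depth-matched cells were the 20 nearest in total UMIs to each Dntt-positive cell of its pool. The tests were checked on simulated data, where the test of class by age missed most of the changes put in and the test of age in other cells made a larger share of false calls than its threshold. Some genes that the rule would name are not reported here, though they stay in the counts of their lists.

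The members and gene lists were chosen with earlier results of these data known. Genes named were, per list, up to 6 called in each direction by size, and beyond the lists the 12 largest in each direction moving the same way in every pool with a mean of at least 5 CPM. Genes like Dntt were the 10 highest ratios among genes seen in at least 5% of members at 5 CPM or more. The 3 kinds of Dntt-positive cell, and the fits on cells with exactly 1 Dntt UMI or without Tcf7 and Cd79a, were added after seeing the data.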

Additional observations from a re-analysis of the deposited data

Results flagged for a closer look

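For 15 named genes the age difference differed between Dntt-positive cells and the other kept cells by edgeR's quasi-likelihood test of the interaction (Benjamini-Hochberg adjusted p below 0.05). Values are the age effect in Dntt-positive cells minus that in other cells on the log2 scale, beside a median of -0.43 over all genes. Genes with a less negative or opposite age effect in Dntt-positive cells were Cd48 (2.23), the lymphocyte surface glycoprotein gene Cd52 (2.15, adjusted p = 6.46e-08), BC035044 (2.09), Plac8 (1.32) and Cd34 (1.24). Cd52 stood at 267, 274, 136 and 408 CPM in Dntt-positive cells of young A, young B, aged A and aged B against 95.8, 109.8, 33.8 and 16.6 CPM, and without aged B its value was 0.31 and not called. BC035044 was not called with at least 2 Dntt UMIs, against depth-matched cells, without the Tcf7 and Cd79a cells, or without young A, young B or aged A (1.46 to 2.10). Of the 15 genes DESeq2 called Cd48 only, and without the replicate block none passed edgeR's test, where 431 of all genes had an unadjusted p below 0.05.

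Genes with a lower age effect in Dntt-positive cells were Fli1 (-2.95), Ccnb2 (-2.84) and the carbonic anhydrase gene Car2 (-1.12). Fli1 rested on 1 and 2 UMIs in the aged pools and was not called without aged B (-3.33). Ccnb2 was not called without young B (-2.51), without aged B (-2.43) or without the Tcf7 and Cd79a cells (-2.52), nor Car2 without young A (-1.18), young B (-1.07) or aged B (-0.79). With at least 2 Dntt UMIs none of the 3 passed edgeR's test. The globin genes Hbb-bs (-14.97) and Hba-a1 (-14.26) had no UMI in aged Dntt-positive cells, so these fitted values depend on the prior count and are no bounds, and neither was called without young A, without aged B or with at least 2 Dntt UMIs. Hbb-bs stood at 248, 26.9, 0 and 0 CPM against 7.36, 421, 31.5 and 159 CPM.

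The single Cd79a cell of aged B carried the values of Vpreb1 (5.42), Ebf1 (4.39), Igkc (4.35), Ighm (3.34) and Jchain (2.63). With the Tcf7 and Cd79a cells removed from the Dntt-positive cells, all 5 were negative. Without aged B, Ighm was called in the opposite direction (-3.65, adjusted p = 8.17e-06 by edgeR's test). Vpreb1, Ebf1 and Jchain were not called without young B, nor Vpreb1 and Ebf1 without young A. With 2 pools per age, outlying pools could not be tested for.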

How the results depend on the processing

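The share of Dntt-positive cells by age kept its direction under each alternative run, at 0.940 points after thinning, 0.587 with at least 2 Dntt UMIs, 1.87 over every barcode and 1.39 to 2.04 when each pool was left out. The whole-pool log2 fold change of Dntt was -3.98 without the replicate block, not called, and -4.92 to -3.45 when each pool was left out.

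Genes called between Dntt-positive and other cells numbered 130 with DESeq2, 7 without the replicate block (1048 at an unadjusted p below 0.05), 250 against depth-matched cells, 124 with exactly 1 Dntt UMI, 291 without Tcf7 or Cd79a cells and 209 to 439 when each pool was left out. Against Flt3 cells they numbered 42 with DESeq2, 0 without the replicate block, 134 without Tcf7 or Cd79a cells and 51 to 183 when each pool was left out. By age in other cells, 228 genes were called (1.68% of 13578), 527 with DESeq2, 708 without a filter on low counts, 0 without the replicate block (1070 at an unadjusted p below 0.05) and 0 to 282 when each pool was left out, with 0 without aged B (994 at an unadjusted p below 0.05) and 4 without aged A. For class by age they numbered 1 with DESeq2, 0 without the replicate block (431 at an unadjusted p below 0.05), 58 over every barcode, 11 with at least 2 Dntt UMIs and 12 to 101 when each pool was left out. The cause of these shifts was not tested, beyond the smaller number of cells or pools.

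Directions turned for named genes as follows, where values against 0 UMIs depend on the prior count and are no bounds. With exactly 1 Dntt UMI, Il7r was -8.18, Ly6d -0.23, Ccr9 -7.53, Ebf1 -7.93, Trbc1 -8.13, Tcrg-C1 -0.072, Cd79a -6.27 and Vpreb1 -0.34. Without Tcf7 or Cd79a cells, Il7r was -0.69, Ly6d -0.78, Ccr9 -1.02, Ebf1 -0.46 and Cd79a -6.34. Only Dntt-positive cells were removed, which put Cd79a at 0 UMIs by construction and took out most cells with Il7r and Ly6d. Over every barcode, Elane was 0.15 against other cells and 0.28 against Flt3 cells, and Rhd -0.00143. With at least 2 Dntt UMIs, Rhd was -8.17, and when each pool was left out it ranged from -7.585 to 2.55, the lowest without young A. For class by age without Tcf7 or Cd79a cells, Igkc was -0.53, Ighm -1.70, Vpreb1 -8.73, Ebf1 -8.33 and Jchain -1.25, and when each pool was left out Ighm ranged from -3.65 to 5.95, Vpreb1 from -8.27 to 13.68, Ebf1 from -9.49 to 6.07 and Jchain from -0.65 to 4.15, the lowest without aged B, where Ighm was called in the opposite direction. Of the other gene values under alternatives, 677 kept direction and call and 169 kept direction only against other cells, 222 and 63 against Flt3 cells, and 101 and 68 for class by age.

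Depth limits these results: 14 aged cells carry every value of aged Dntt-positive cells, and single Dntt UMIs cannot be told from free RNA cell by cell.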

Other observations

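Cells with an Il7r UMI and no Dntt UMI (58 in young A, 28 in young B, 45 in aged A and 6 in aged B) were set beside the Dntt-positive cells as levels only, since some sums held fewer than 10 cells. Gata3, a transcription factor of T and innate lymphoid cells, stood at 183, 324, 204 and 156 CPM in them against 26.7, 26.9, 22.7 and 41.8 CPM in Dntt-positive cells, above them in each pool. Ccr9 was at 56.8, 156, 132 and 17.3 CPM against 14.1, 22.4, 0 and 10.5 CPM. Arpp21 was at 2.47 CPM in young A and 0 in the other 3 pools, below the Dntt-positive cells throughout, whose aged values rested on 1 UMI each. Ly6d was at 12.3, 0, 3.39 and 0 CPM. Hlf was at 136, 239.9, 221 and 259.6 CPM, above the 104, 132, 136 and 94.1 CPM of the Dntt-positive cells.

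Mitochondrial UMIs were 2.94, 2.46, 3.04 and 2.83% of the median Dntt-positive cell of young A, young B, aged A and aged B, against 3.07, 2.74, 3.34 and 3.04% of the median other cell.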
